A study of Mus musculus with 4 samples.

Results

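The genes described are 10 members of the NF-kB system, a set of subunits and feedback inhibitors: Nfkb1, Nfkb2, Rela, Relb, Nfkbia, Nfkbiz, Nfkbie, Tnfaip3, Tnip1 and Birc3. They were taken by symbol from the 31017 gene symbols of the deposited tables, and all 10 were found. The study measured single-cell transcriptomes of mouse testis in 4 libraries, 1 per group. The 2-day culture and the 7-day culture came from testes taken at 7 days postpartum (dpp), cut into pieces and kept on agarose under a ceiling chip of PDMS in α-MEM with AlbuMAX. For the other libraries, testes of mice aged 9 dpp or 14 dpp were used without culture, so that age and culture time add up to 9 days in one pair and 14 days in the other. All groups carried the same transgene, given as Acr-Gfp tg mouse (C57BL/6), in which the promoter of the germ cell gene Acr drives green fluorescent protein. The labels do not say how many animals were pooled in a library. Inflammation of the testis in organ culture is the subject given by the title of the series.

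NF-kB transcription factors are pairs of subunits that wait in the cytoplasm, bound by IkB proteins, until a signal from receptors of cytokines or microbial products frees them. Rela with the product of Nfkb1 serves the canonical branch, and Relb with the product of Nfkb2 serves the non-canonical branch. Several genes that NF-kB switches on encode its own brakes, so the transcripts of these brakes are a common readout of the pathway, while the proteins themselves are controlled by degradation, cleavage and transport that RNA does not show. In testis the pathway is known from Sertoli cells, which nurse the germ cells, and from the macrophages and fibroblast-like cells between the tubules.

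The genes lie on 9 chromosomes of GRCm38, here with the strand in parentheses and from GENCODE M21. Among the subunits, Nfkb1 is at chr3:135584655-135691547 (-), Nfkb2 at chr19:46304320-46312385 (+), Rela at chr19:5637483-5648130 (+) and Relb at chr7:19606217-19629438 (-). Nfkbia is at chr12:55489410-55492647 (-), Nfkbiz at chr16:55811375-55838899 (-) and Nfkbie at chr17:45555703-45563169 (+). Tnfaip3 is at chr10:19000910-19015657 (-), Tnip1 at chr11:54910785-54962917 (-) and Birc3 at chr9:7848699-7873186 (-). All 10 are protein coding.

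Promoter sequences from RefSeq (GRCm38.p6) were matched for 7 of the 10 genes, Nfkb2, Rela, Nfkbia, Nfkbie, Tnfaip3, Tnip1 and Birc3. The 250 bases before the start site were searched on both strands for the κB consensus decamer, the motif NF-kB binds. A match was found in 5 of these 7 windows, against 2382 of all 32851 RefSeq windows of that length (7.25%). Windows with at least 2 matching positions numbered 3 of 7, against 338 of all windows (1.03%); matches that overlap were counted by position. The windows of Nfkbia, Nfkbie and Tnip1 hold no annotated exon base and are shown because these inhibitors have a match and stood past 2-fold in the culture of 2 days. The build of the coordinates is GRCm38.p6. They run 5′ to 3′ on the strand of the gene, with the bases of a match in capitals.
Nfkbia, chr12:55492648-55492897, - strand: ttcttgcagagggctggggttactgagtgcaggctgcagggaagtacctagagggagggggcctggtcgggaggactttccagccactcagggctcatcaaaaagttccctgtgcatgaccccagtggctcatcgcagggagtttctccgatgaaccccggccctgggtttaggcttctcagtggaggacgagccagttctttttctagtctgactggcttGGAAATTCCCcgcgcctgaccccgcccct
Nfkbie, chr17:45555450-45555699, + strand: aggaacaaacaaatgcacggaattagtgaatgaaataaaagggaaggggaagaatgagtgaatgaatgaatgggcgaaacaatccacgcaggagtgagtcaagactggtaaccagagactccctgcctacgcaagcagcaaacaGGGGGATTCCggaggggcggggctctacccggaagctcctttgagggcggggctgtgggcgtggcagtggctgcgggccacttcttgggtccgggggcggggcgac
Tnip1, chr11:54962941-54963190, - strand: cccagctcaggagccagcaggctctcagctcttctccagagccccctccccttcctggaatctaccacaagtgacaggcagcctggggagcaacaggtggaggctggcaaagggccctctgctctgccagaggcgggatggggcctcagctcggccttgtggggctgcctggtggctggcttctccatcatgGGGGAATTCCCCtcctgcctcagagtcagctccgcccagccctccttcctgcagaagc
The Nfkbia match lies 29 to 20 bases before the start and reads GGGAATTTCC on the opposite strand. The Nfkbie match, GGGGGATTCC, lies 106 to 97 bases before the start. In Tnip1 the capitals are 3 overlapping positions in 1 stretch, from 58 to 47 bases before the start, and the letters GGGGAATTCC are read on both strands. Nfkb2 had 3 matching positions in 2 stretches, among them GGGAATTCCC at 39 to 30 and GGGGCTTTCC at 11 to 2 bases before the start. Tnfaip3 had 2, GGGACACCCC at 125 to 116 and, on the opposite strand, GGGGATTTCC at 12 to 3 bases before the start. All 250 bases of the Nfkb2 window, one of 3 listed starts, and 110 bases of the Tnfaip3 window lie in annotated exons. The windows of Rela and Birc3 held no match, which says only that these letters are not there. A match is a description of the letters, and binding was not measured.

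After filters, 6877 cells remained for the 2-day culture, 4816 for the 7-day culture, 5150 for 9 dpp and 6195 for 14 dpp, with 32078508 to 57585867 counts of unique molecular identifiers (UMIs) each. Median UMIs per cell were 3606, 5577.5, 8544.5 and 6447, in that order, which is used for all lists of 4 values below. Between 35 and 86 barcodes were shared by any pair of libraries. Cells were put into classes by the UMIs of marker genes. The 4 classes with at least 50 cells in each library were stromal- or myoid-like (2510, 1507, 1522 and 1125 cells), Sertoli-like (1103, 515, 859 and 868), Leydig-like (60, 58, 72 and 82) and germ-like (2887, 2570, 2541 and 3753). Because each group is 1 library, culture and library cannot be told apart and no test between groups could be run. Intervals are 95% and cover counting error only. Levels are UMIs per 1000000 UMIs (CPM) of all kept cells or of a class, ratios are log2 ratios of CPM + 1, and "past 2-fold" means a ratio of at least 1 or at most -1. In whole libraries, more cells of a type and more RNA per cell cannot be told apart.

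Over whole libraries, 8 of the 10 genes stood past 2-fold higher in the 2-day culture than at 9 dpp, where 4.19% of the 16616 genes measured did. In the 7-day culture against 14 dpp, 5 of 10 stood past 2-fold higher, against 3.6% of all genes; with 10 instead of 1 added to CPM, this count was 0. None was past 2-fold lower, where 3.41% and 2.67% of all genes were. Nfkb1 and Rela were the 2 genes short of 2-fold in the 2-day pair. The median ratio of the 10 genes was 2.00 in the 2-day pair, with 0.99 in the 7-day pair, beside medians over all genes of -0.12 and 0.000850. The 5 genes past 2-fold in the 7-day pair were Relb, Nfkbiz, Nfkbie, Tnfaip3 and Birc3.

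**Figure D1:**
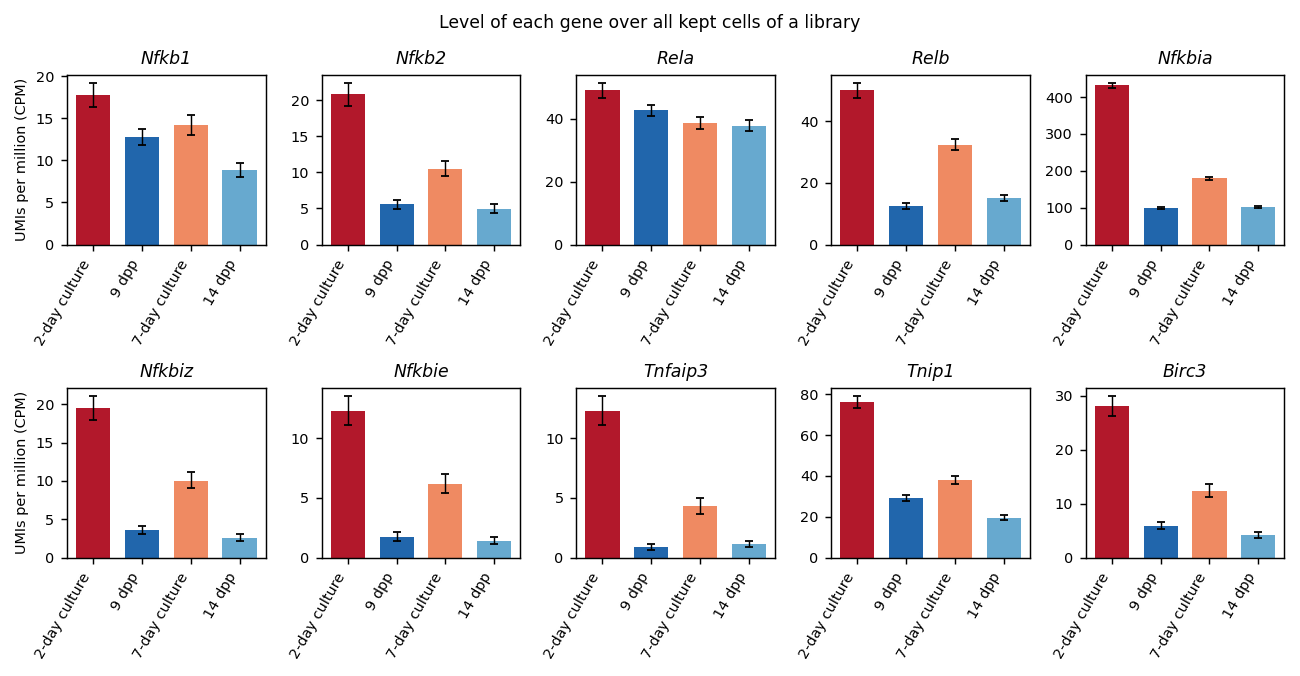
Level of each of the 10 genes in each library, over all kept cells, as UMIs per 1000000 (CPM, linear axis from 0, a scale of its own for each gene); bars are the level and error bars the exact 95% Poisson interval. Red and orange bars are the 2-day and 7-day cultures and blue bars 9 dpp and 14 dpp; Nfkbia stands at 432 CPM in the 2-day culture against 98.4 at 9 dpp, while Rela stays between 37.8 and 49.0 CPM.

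Rela encodes p65, the activating subunit of the canonical dimer. Its level over all kept cells was 49.0 CPM after 2 days in culture, 38.7 after 7 days in culture, 42.7 at 9 dpp and 37.8 at 14 dpp. These 4 values lie close together, and the ratio was 0.20 (0.11 to 0.28) in the 2-day pair, with 0.030 (-0.064 to 0.12) in the 7-day pair. Rela stood in stromal- or myoid-like cells at 54.8, 46.8, 35.2 and 30.7 CPM. Both cultures were higher than both in vivo libraries there, with ratios of 0.62 (0.44 to 0.81) and 0.59 (0.33 to 0.86), short of 2-fold. In Sertoli-like cells the levels of 73.0, 76.5, 75.1 and 83.5 CPM gave ratios of -0.040 and -0.12, and germ-like cells held 24.8, 22.7, 29.4 and 24.3 CPM.

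Nfkb1 encodes p105, which is processed to the DNA-binding subunit p50. Whole libraries held 17.7 CPM after 2 days in culture, 14.1 after 7 days in culture, 12.7 at 9 dpp and 8.82 at 14 dpp. The culture of each pair was higher, by 0.45 (0.30 to 0.60) and 0.62 (0.46 to 0.79) on the log2 scale, and the counting intervals of the 7-day culture and 9 dpp overlapped. Within stromal- or myoid-like cells levels were 29.98, 30.6, 24.9 and 24.5 CPM, and the ratios were 0.26 (0.027 to 0.49) and 0.31 (0.0027 to 0.62). Sertoli-like cells held 23.3, 23.9, 20.6 and 16.5 CPM, with ratios of 0.17 (-0.10 to 0.44) and 0.51 (0.21 to 0.81). Germ-like cells were low in all 4 libraries, at 2.22, 3.33, 2.95 and 2.26 CPM.

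Relb encodes the activating subunit of the non-canonical dimer, and the gene is itself switched on by canonical NF-kB. Over all kept cells it stood at 49.9 CPM after 2 days in culture, 32.4 after 7 days in culture, 12.4 at 9 dpp and 15.1 at 14 dpp. Both cultures were above both in vivo libraries, with a linear ratio of CPM of 4.03 in the 2-day pair, with 2.14 in the 7-day pair, and log2 ratios of 1.93 (1.81 to 2.05) and 1.05 (0.93 to 1.17). Stromal- or myoid-like cells showed the same order, at 89.8, 74.6, 24.7 and 26.7 CPM, with ratios of 1.82 (1.62 to 2.02) and 1.45 (1.18 to 1.71). Sertoli-like cells held 41.7, 45.4, 5.42 and 11.3 CPM. Their ratios, 2.73 (2.42 to 3.05) and 1.91 (1.63 to 2.20), were above those of the stromal- or myoid-like cells, with intervals that overlapped in the 7-day pair and not in the 2-day pair. In germ-like cells Relb was at 16.3, 12.7, 11.3 and 14.2 CPM, with ratios of 0.49 and -0.15.

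Nfkb2 encodes p100, which holds Relb back until it is cut to p52. Its whole-library level was 20.8 CPM after 2 days in culture, 10.5 after 7 days in culture, 5.57 at 9 dpp and 4.98 at 14 dpp, higher in both cultures than in either in vivo library. The ratio was 1.73 (1.56 to 1.90) in the 2-day pair, with 0.94 (0.75 to 1.13), just short of 2-fold on this scale, in the 7-day pair. In stromal- or myoid-like cells, where levels were 36.9, 26.9, 11.3 and 7.91 CPM, the ratios of 1.63 (1.34 to 1.91) and 1.65 (1.21 to 2.09) were nearly equal. Sertoli-like cells stood at 19.0, 14.3, 5.49 and 7.67 CPM, with ratios of 1.62 (1.26 to 1.98) and 0.82 (0.42 to 1.21). The germ-like level of 4.28, 1.69, 3.67 and 3.51 CPM was lowest in the 7-day culture, at a ratio of -0.75 (-1.11 to -0.38) against 14 dpp.

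Nfkbia encodes IkBα, the inhibitor that NF-kB resynthesises within its fast feedback loop. It had 13855, 6657, 5666 and 5743 UMIs in the whole libraries, or 432 CPM after 2 days in culture, 179 after 7 days in culture, 98.4 at 9 dpp and 102 at 14 dpp. The 2-day culture stood far above the other libraries, the 7-day culture lay between, and the in vivo libraries were close to each other. The linear ratio was 4.39 in the 2-day pair, with 1.76 in the 7-day pair, and the log2 ratios were 2.12 (2.08 to 2.17) and 0.81 (0.76 to 0.86). Its level in stromal- or myoid-like cells was 727 CPM after 2 days in culture, 333 after 7 days in culture, 73.2 at 9 dpp and 105 at 14 dpp, from 7958, 2334, 700 and 531 UMIs. That is a linear ratio of 9.94 in the 2-day pair, with 3.17 in the 7-day pair, at log2 ratios of 3.30 (3.19 to 3.41) and 1.65 (1.52 to 1.79). Sertoli-like cells already held much Nfkbia in vivo, with 643, 476, 287 and 333 CPM, and their ratios were 1.16 (1.10 to 1.22) and 0.51 (0.44 to 0.58).

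Among the 4 classes with at least 50 cells in each library, the order by Nfkbia level differed between libraries. Rarer classes are not ranked here, and some of them held as much or more, such as pericyte-like cells after 2 days in culture (918 CPM) and endothelial-like cells after 7 days (589 CPM). At 9 dpp the order ran from Sertoli-like (287 CPM) to Leydig-like (151), stromal- or myoid-like (73.2) and germ-like (10.5), with no overlap between neighbouring intervals of these 4. At 14 dpp the order was the same, but the Leydig-like level of 127 (108 to 149) and the stromal- or myoid-like level of 105 (96.3 to 114) overlapped. In the 2-day culture the stromal- or myoid-like cells came first of the 4 at 727 CPM, above Sertoli-like cells at 643 and Leydig-like cells at 415. In the 7-day culture Sertoli-like cells led the 4 again at 476 CPM, and the Leydig-like 379 (330.4 to 432) and stromal- or myoid-like 333 (319 to 347) overlapped.

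Nfkbie encodes IkBε, a slower inhibitor of the same family. Whole libraries held 12.3 CPM after 2 days in culture, 6.14 after 7 days in culture, 1.77 at 9 dpp and 1.42 at 14 dpp, and both cultures were above both in vivo libraries. The ratios were 2.26 (2.04 to 2.48) and 1.56 (1.31 to 1.81). Stromal- or myoid-like cells held 72.3%, 52.6%, 18.6% and 13.8% of its UMIs, at 26.0, 17.1, 1.99 and 2.18 CPM or 284, 120, 19 and 11 UMIs, with ratios of 3.17 (2.71 to 3.64) and 2.51 (1.88 to 3.14). Sertoli-like cells held 6.95, 6.26, 1.97 and 0.936 CPM, with ratios of 1.42 (0.92 to 1.93) and 1.91 (1.32 to 2.49), and germ-like cells at most 1.56 CPM.

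Nfkbiz encodes IkBζ, a nuclear IkB protein that works as a cofactor for a late set of NF-kB genes. Its levels in whole libraries were 19.5 CPM after 2 days in culture, 10.1 after 7 days in culture, 3.63 at 9 dpp and 2.63 at 14 dpp. The cultures were again above both in vivo libraries, with ratios of 2.15 (1.96 to 2.33) and 1.61 (1.39 to 1.82). Stromal- or myoid-like cells stood at 35.1, 22.2, 3.35 and 6.33 CPM, which gave 3.05 (2.64 to 3.46) and 1.67 (1.18 to 2.15). The levels in Sertoli-like cells were 23.6, 21.2, 6.64 and 5.05 CPM and the ratios 1.69 (1.36 to 2.02) and 1.87 (1.48 to 2.27), so that here the 7-day ratio was no smaller than the 2-day ratio.

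Tnfaip3 encodes A20, an enzyme that edits ubiquitin chains and shuts off signalling from TNF and Toll-like receptors. Few of its transcripts were counted in vivo, with 52 UMIs at 9 dpp and 63 at 14 dpp, against 393 in the 2-day culture and 160 in the 7-day culture. The levels were 12.3 CPM after 2 days in culture, 4.31 after 7 days in culture, 0.903 at 9 dpp and 1.12 at 14 dpp, and the ratios 2.80 (2.57 to 3.03) and 1.32 (1.06 to 1.59). With 10 added to CPM the 2-day ratio was 1.03. In stromal- or myoid-like cells 269 UMIs were seen in the 2-day culture and 5 at 9 dpp, 24.6 against 0.523 CPM, and 92 in the 7-day culture against 8 at 14 dpp, 13.1 against 1.58 CPM. The ratios were 4.07 (3.61 to 4.54) and 2.45 (1.78 to 3.12). At counts this small the ratio also moves with the constant, from 1.72 (10 added to CPM) to 5.56 (no constant, floor of 3 UMIs) in the 2-day pair, while that of the 7-day pair ran from 0.997 to 3.05, and the linear folds were 47.0 and 8.29. Sertoli-like cells gave 2.65 (2.18 to 3.13) from 73 and 14 UMIs, and 1.06 (0.47 to 1.65) from 31 and 20.

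Tnip1 encodes ABIN-1, a partner that brings A20 to its ubiquitin chains. Its whole-library levels were 76.0 CPM after 2 days in culture, 37.9 after 7 days in culture, 29.3 at 9 dpp and 19.5 at 14 dpp, with ratios of 1.35 (1.26 to 1.44) and 0.92 (0.81 to 1.03). Short of 2-fold in the 7-day pair, it also differed between the in vivo ages, at -0.56 (-0.67 to -0.46) for 14 dpp against 9 dpp. Stromal- or myoid-like cells had 119, 62.4, 24.4 and 21.8 CPM and ratios of 2.25 (2.05 to 2.44) and 1.48 (1.19 to 1.77). Sertoli-like cells, at 67.6, 45.7, 28.1 and 21.0 CPM, had 1.24 (1.05 to 1.43) and 1.09 (0.85 to 1.33). Germ-like cells also held the transcript, at 27.7, 21.5, 31.7 and 19.1 CPM, and there the ratios were -0.19 and 0.16.

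Birc3 encodes cIAP2, a ubiquitin ligase that works at TNF receptors and keeps the non-canonical kinase in check. It was at 28.1 CPM after 2 days in culture, 12.5 after 7 days in culture, 5.96 at 9 dpp and 4.23 at 14 dpp in whole libraries. Both cultures were above both in vivo libraries, by 2.06 (1.90 to 2.22) and 1.36 (1.17 to 1.55). The stromal- or myoid-like levels of 61.9, 42.6, 15.6 and 17.8 CPM gave 1.92 (1.68 to 2.17) and 1.21 (0.89 to 1.54). Sertoli-like cells, at 19.3, 13.0, 5.63 and 4.40 CPM, gave 1.62 (1.26 to 1.97) and 1.37 (0.93 to 1.82). Of the 10 genes it was the one with the highest share of its UMIs in stromal- or myoid-like cells in all 4 libraries, 75.2%, 64.7%, 43.4% and 37.8%.

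Counted by class, 8 of 10 genes in stromal- or myoid-like cells stood past 2-fold higher in the 2-day culture, against 5.86% of the 12185 genes measured there. The same number did in the 7-day pair, against 4.98% of all genes. In both pairs the 2 genes short of 2-fold were Nfkb1 and Rela. The median ratio of the 10 was 2.08 and 1.56, with medians over all genes of -0.17 and -0.017. In Sertoli-like cells 8 of 10 were past 2-fold higher in the 2-day pair (6.33% of 12047 genes) and 6 of 10 in the 7-day pair (9.88%). There, Nfkb1, Nfkb2, Rela and Nfkbia fell short of 2-fold in the 7-day pair. Nfkbie and Tnfaip3 reached the minimum only with the cultures in Sertoli-like cells too. With 10 added to CPM, 5 stromal- or myoid-like ratios of the 7-day pair and 4 and 2 Sertoli-like ratios were past 2-fold. None of the 10 was past 2-fold lower in these 2 classes, beside 7.23% and 4.69% of genes in the former and 5.98% and 7.94% in the latter.

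**Figure D2:**
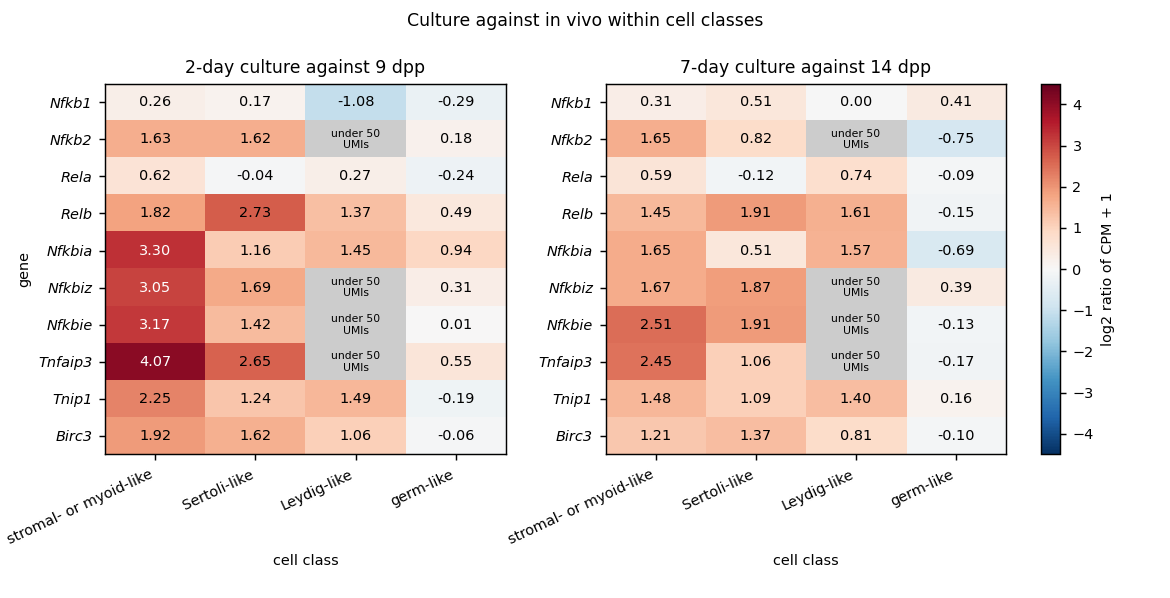
Log2 ratio of CPM + 1 of each gene (rows) in each cell class (columns), for the 2-day culture against 9 dpp (left) and the 7-day culture against 14 dpp (right); red is higher in culture, and grey cells mark genes with under 50 UMIs in the class over the 4 libraries. In the stromal- or myoid-like column all 10 ratios are above 0 in both pairs, from 0.26 for Nfkb1 to 4.07 for Tnfaip3 in the 2-day pair, and the germ-like column lies between -0.75 and 0.94.

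In Leydig-like cells, which make androgens, the few cells left 6 of the 10 genes above the minimum of 50 UMIs: Nfkb1, Rela, Relb, Nfkbia, Tnip1 and Birc3. Nfkbia stood at 415, 379, 151 and 127 CPM, with ratios of 1.45 (1.16 to 1.75) and 1.57 (1.27 to 1.86). Relb was at 65.7, 60.3, 24.8 and 19.1 CPM and Tnip1 at 82.1, 65.4, 28.6 and 24.1 CPM, both higher in both cultures than in vivo. Of the 6, 4 were past 2-fold higher in the 2-day pair (5.85% of 6617 genes), these and Birc3, and 3 in the 7-day pair (7.03%). Nfkb1 was past 2-fold lower in the 2-day pair, as 12.1% of the genes measured were, with 7 UMIs against 33 and a ratio of -1.08 (-2.19 to 0.028), and it fell short of 2-fold with 10 added to CPM, with TMM or DESeq2 factors, with a stricter margin between classes and, at -0.36, with classes taken from Leiden clusters. In the 7-day pair none of the 6 was past 2-fold lower, against 8.39% of genes. Tnfaip3 had 4 and 3 UMIs in the cultures and 0 in both in vivo libraries, under the floor of 3 UMIs there.

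On the scale of CPM + 1, 0 of the 10 genes in germ-like cells were past 2-fold in either direction in either pair, where 1.27% of 14634 genes were higher and 3.12% lower in the 2-day pair, and 0.677% higher and 2.68% lower in the 7-day pair. The median ratio was 0.10 in the 2-day pair, with -0.12 in the 7-day pair. Nfkbia had the highest ratio of the 2-day pair, at 21.1 CPM after 2 days in culture, 9.17 after 7 days in culture, 10.5 at 9 dpp and 15.5 at 14 dpp, with a ratio of 0.94 (0.72 to 1.17) in the 2-day pair, with -0.69 (-0.91 to -0.48) in the 7-day pair. Without the added 1, the linear fold of Nfkbia was 2.01 in the 2-day pair and that of Nfkb2 0.481 in the 7-day pair, both past 2-fold. Nfkbia also passed 2-fold in the 2-day pair after thinning to 2000 UMIs (1.22), with doublet calls kept (1.19) and with cells weighted equally (1.03). Germ-like cells were also split by stage markers without thinning, so depth can move the split. The spermatogonial side had 1481, 1015, 1567 and 1371 cells. The spermatocyte side had 605, 978, 169 and 1140, where any cells with no UMI of either set were placed. Germ-like cells with at least as many UMIs of spermatogonial as of spermatocyte markers held 20.6, 10.00, 10.9 and 15.3 CPM of Nfkbia. Those with at least 4 times as many spermatocyte as spermatogonial marker UMIs held 21.2, 7.78, 5.77 and 17.0 CPM. Tnip1 stood at 33.9, 34.8, 34.7 and 26.7 CPM in the former and 10.9, 7.78, 20.2 and 6.26 CPM in the latter, lower in the latter in each library. Rela was lower in the latter as well, at 27.2, 28.0, 31.5 and 27.3 CPM against 10.9, 16.2, 20.2 and 18.8 CPM, with overlapping intervals at 9 dpp. Not every gene was lower in the latter: Nfkb1 stood at 3.23, 1.57, 3.53 and 2.82 CPM in the former and 0.641, 6.51, 0.962 and 2.16 CPM in the latter, higher there in the 7-day culture, and Relb at 16.8, 14.8, 10.7 and 11.1 CPM against 22.4, 9.57, 13.5 and 17.2 CPM, with separate intervals in the 7-day culture (lower) and at 14 dpp (higher).

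Free RNA in the droplets can add UMIs of other cells to any class. A set of 7 genes of stromal cells that are not class markers (Serpinf1, Fbln1, Fstl1, Col6a1, Col6a2, Col5a1 and Mgp) was summed, and stood in germ-like cells at 1.91%, 0.828%, 2.78% and 2.01% of its stromal- or myoid-like level. Nfkbia in germ-like cells stood at 2.90%, 2.76%, 14.3% and 14.7% of its stromal- or myoid-like level, and Birc3 at 4.52%, 3.51%, 18.9% and 9.45%. In each library these shares were above that of the 7 stromal genes, by less in the cultures than in vivo, and Rela, at 45.2%, 48.5%, 83.5% and 79.1%, was farther above it. The stromal- or myoid-like levels of Nfkbia and Birc3, which divide these shares, were themselves lower in vivo. Most Nfkbia UMIs there came from Sertoli-like cells, 74.8% at 9 dpp and 61.9% at 14 dpp. The contrast between cultures and in vivo therefore also moves with the divisor. The part of free RNA in the germ-like levels was not tested. In Sertoli-like cells the 7 stromal genes were at 2.21%, 1.38%, 3.06% and 5.84% and Nfkbia at 88.4%, 143%, 393% and 317%. Birc3 stood lower than Nfkbia there, at 31.2%, 30.5%, 36.1% and 24.7%. The part of free RNA in the Sertoli-like levels was not tested either. Leydig-like cells carried more of the stromal genes, 7.24%, 3.53%, 24% and 19.0%, and their part in the Leydig-like ratios was not tested.

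The classes took different shares of each gene's UMIs in the libraries. Stromal- or myoid-like cells held 34.1%, 18.9%, 16.6% and 8.99% of all UMIs, Sertoli-like cells 20.2%, 16.8%, 25.6% and 19.0% and germ-like cells 37.9%, 55.8%, 53.0% and 61.3%. Of the Nfkbia UMIs, 57.4%, 35.1%, 12.4% and 9.25% came from stromal- or myoid-like cells and 30.1%, 44.6%, 74.8% and 61.9% from Sertoli-like cells. The Nfkbia transcripts thus lay mostly in Sertoli-like cells in vivo and mostly in stromal- or myoid-like cells in the 2-day culture. Of the Relb UMIs, germ-like cells held 12.4%, 21.9%, 48.3% and 57.8% and stromal- or myoid-like cells 61.3%, 43.5%, 33.1% and 15.9%. Tnip1 showed the same exchange, with germ-like shares of 13.8%, 31.7%, 57.5% and 60.1% and stromal- or myoid-like shares of 53.5%, 31.2%, 13.8% and 10.0%. The stromal- or myoid-like share of all UMIs also differed between the libraries of each pair, so whole-library ratios hold both the makeup and the level within classes.

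**Figure D3:**
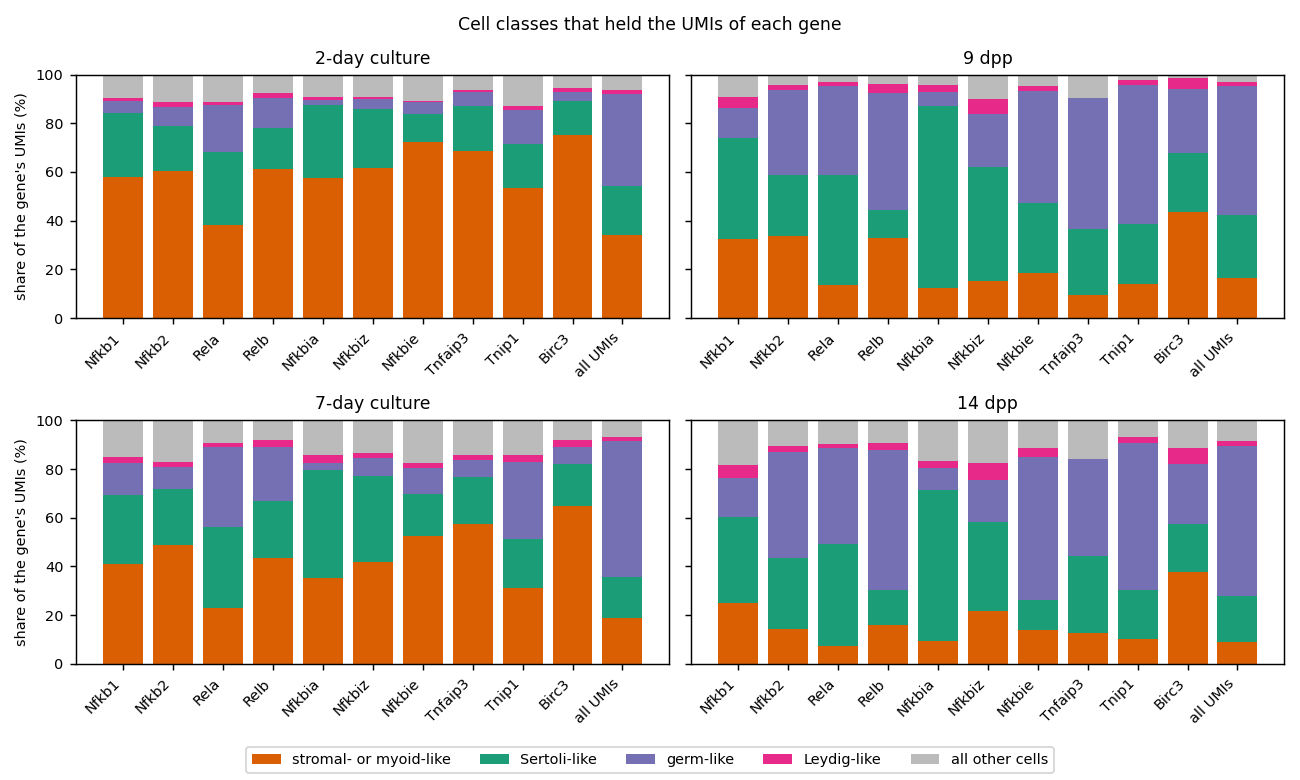
Share of the UMIs of each gene (stacked bars, percent) that lay in stromal- or myoid-like, Sertoli-like, germ-like and Leydig-like cells and in all other cells, with 1 panel per library and all UMIs of the library as the last bar. The stromal- or myoid-like part is larger than its part of all UMIs for each gene in both cultures; for Nfkbia it is 57.4% in the 2-day culture and 12.4% at 9 dpp.

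The share of cells with at least 1 UMI gives the spread of the transcripts over cells. Each cell was thinned to 2000 UMIs, which left out 285, 95, 37 and 96 stromal- or myoid-like cells and used 2225, 1412, 1485 and 1029. Nfkbia was then found in a share of these cells of 63.4% after 2 days in culture, 37.9% after 7 days in culture, 13.5% at 9 dpp and 18.6% at 14 dpp. Without thinning the shares were 76.8%, 55.1%, 32.7% and 33.2%, at median depths of 3705.5, 4103, 5622 and 4121 UMIs. In germ-like cells, thinned in the same way, the Nfkbia shares were 3.76%, 1.84%, 1.96% and 2.91%, at median depths before thinning of 3511, 6415.5, 10905 and 6826 UMIs. The stromal- or myoid-like shares lay far above the germ-like shares in all 4 libraries.

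At least 1 of the 10 transcripts was seen in 81.5%, 62.7%, 37.5% and 39.5% of stromal- or myoid-like cells. The shares for single genes were lower: Tnip1 was in 19.7%, 10.6%, 5.86% and 3.60%, Relb in 15.6%, 13.4%, 4.98% and 5.25%, Birc3 in 11.6%, 7.44%, 3.23% and 3.98% and Tnfaip3 in 4.72%, 2.20%, 0.337% and 0.389%. For 8 of the 10 genes the share was higher in the culture of both pairs, with exact intervals that did not overlap. Such a count was not made over all genes, so it is a description only, and the intervals take cells of 1 library as independent. Nfkb1, at 5.57%, 6.52%, 6.26% and 5.15%, and Rela, at 9.98%, 8.64%, 7.27% and 6.71%, were the other 2, and of these Rela had a higher share in the 2-day culture, 9.98% (8.76 to 11.3) against 7.27% (6.00 to 8.71) at 9 dpp. Sertoli-like cells had Nfkbia in 65.8%, 53.2%, 43.0% and 48.1%, from 685, 494, 845 and 801 cells after 418, 21, 14 and 67 were left out as too shallow. The unthinned Sertoli-like shares were 74.8%, 87.2%, 90.2% and 86.4%, an order that depth alone can move, since the 2-day cells had a median of 3211 UMIs and those at 9 dpp of 14101.

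**Figure D4:**
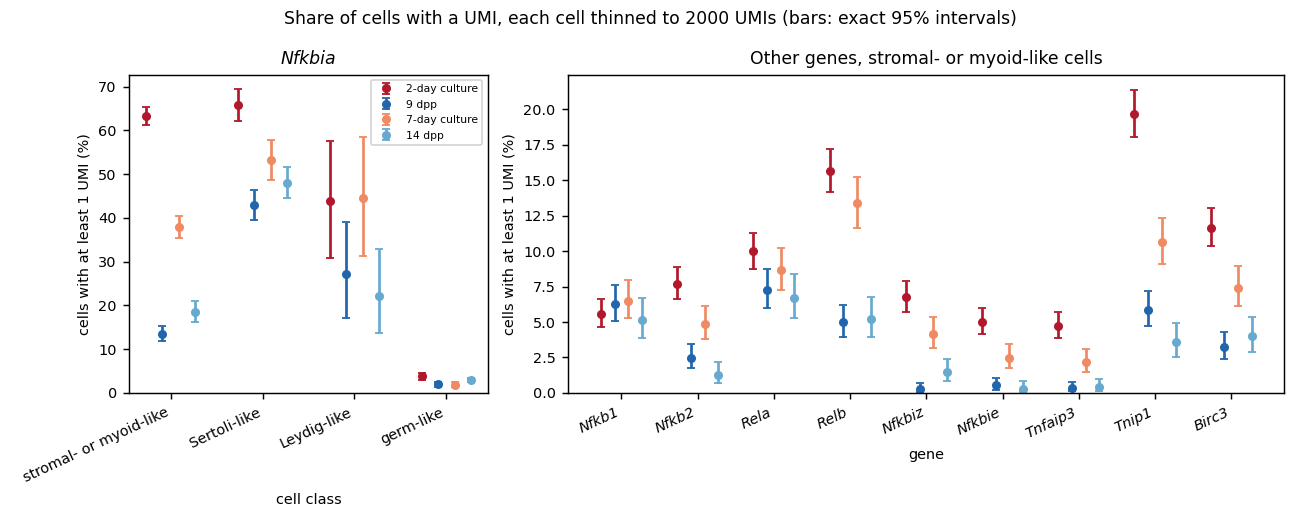
Share of cells with at least 1 UMI (percent, linear axis from 0) after thinning each cell to 2000 UMIs, for Nfkbia in 4 cell classes (left) and for the other 9 genes in stromal- or myoid-like cells (right); points are shares, bars exact 95% binomial intervals, and colours the 4 libraries. Nfkbia is in 63.4% of stromal- or myoid-like cells of the 2-day culture and 13.5% of those at 9 dpp.

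Different clusters of cells made up the stromal- or myoid-like class in culture and in vivo. Most of its cells lay in clusters 1 and 5 in the 2-day culture, in clusters 1 and 14 in the 7-day culture and in clusters 6 and 9 in vivo. Within each library the 2 clusters lay closer to each other in Nfkbia than culture and in vivo clusters of a pair did. Nfkbia was at 795 and 697 CPM in clusters 1 and 5 of the 2-day culture, and at 322 and 352 CPM in clusters 1 and 14 of the 7-day culture. Clusters 6 and 9 held 84.0 and 61.0 CPM at 9 dpp, and 119 and 83.6 CPM at 14 dpp. Tnfaip3 was at 24.1 and 25.0 CPM in clusters 1 and 5 of the 2-day culture, and at 0.223 and 0.831 CPM in clusters 6 and 9 at 9 dpp. Nfkbie differed between the clusters of the 7-day culture, at 9.87 CPM in cluster 1 and 20.7 CPM in cluster 14. Tnip1 did so too, at 41.0 and 75.0 CPM, and at 14 dpp it was at 15.4 CPM in cluster 6 and 31.6 CPM in cluster 9. Nfkbiz was at 46.1 and 28.8 CPM in clusters 1 and 5 of the 2-day culture. Sertoli-like cells also came from different clusters, mostly 8 in both cultures, with 16 in the 2-day culture, and otherwise 13 (9 dpp) and 15 (14 dpp). Germ-like clusters were unevenly filled as well: cluster 3 held 1170 cells of the 2-day culture and 93 at 9 dpp, and cluster 2 held 27 and 810.

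Immune cells also carry these transcripts, so their markers were summed. Summed over the 9 macrophage markers, whole libraries held 23.7, 291, 179 and 199 CPM, lowest in the 2-day culture. In stromal- or myoid-like cells the macrophage markers came to 5.12, 4.70, 5.23 and 7.71 CPM, and C1qb and C1qc were at 0 in the 2-day culture. The 5 neutrophil markers were at 3.38, 0.428, 0.209 and 0.791 CPM in these cells, with S100a8, S100a9, Csf3r and Retnlg at 0 in the cultures and at 9 dpp, so that Mmp9 gave every one of those UMIs. In Sertoli-like cells the macrophage markers were at 2.01, 10.3, 19.7 and 43.4 CPM, lower in each culture than in the in vivo library of its pair. The 14 dpp Leydig-like cells held 9 of 9 macrophage markers at a sum of 129 CPM, and their part in the Leydig-like values was not tested.

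The in vivo libraries and the cultures were each compared by time. At 14 dpp against 9 dpp, 0 of the 10 were past 2-fold over whole libraries, where 4.09% of all genes were higher and 1.97% lower, and the median ratio was -0.18. In the 7-day against the 2-day culture 0 of the 10 were past 2-fold higher, against 4.52% of all genes. The ratios ran from -1.32 to -0.30, with a median of -0.91 beside 0.070 over all genes. Past 2-fold lower were 3, Tnfaip3 at -1.32 (-1.54 to -1.10), Nfkbia at -1.26 (-1.31 to -1.22) and Birc3 at -1.11 (-1.26 to -0.96), against 2.37% of all genes. That count was 5 with TMM factors, 7 with DESeq2 size factors and 1 with 10 added to CPM. Within stromal- or myoid-like cells Nfkbia alone was past 2-fold lower in the 7-day culture, at -1.13 (-1.19 to -1.06), against 3.43% of the genes there. Tnfaip3 in Sertoli-like cells (-1.04) and Nfkbia in germ-like cells (-1.12) were so too. The share over all genes is not given for those classes. These comparisons share libraries with the culture comparisons, so the values are given side by side and not as separate evidence.

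The likeness of the genes to each other was described over the 16 sums of 4 classes in 4 libraries, which share libraries and differ in depth. As a description, Pearson's r of log2 CPM + 1 was highest for Nfkbie with Tnip1 (0.921), Nfkb2 with Birc3 (0.918) and Nfkbia with Nfkbiz (0.913). It was lowest for Rela with Relb (0.223) and for Nfkb1 with Tnfaip3 (0.346). Among 13568 genes, the 3 closest to Nfkbia were Ly6e, Ube2l6 and Bcl3, at r of 0.966 to 0.958. Casp4 was first for Nfkb2 and Relb and second for Nfkbie, at r of 0.95, 0.943 and 0.949. Next for Nfkb2 were Tap1 and Mvp, for Relb Fas and Socs3, and for Nfkbie Fam180a, in first place, and Tlr2. Closest to Nfkbiz were Rtp4, Ptges and Ier3, to Tnfaip3 Ifit1, H2-Q6 and Tnfaip2, and to Tnip1 Cxcl2, Tnfaip2 and Serpina3i. Birc3 was closest to H2-T22, Ddx58 and C1ra. Nfkb1 was closest to Ltbr, a receptor of the non-canonical branch, Sdf2 and Cnpy2, and Rela to Apobec3, Rab20 and Arf5. H2-Q6, H2-T22 and Serpina3i belong to families of near-identical copies whose reads can be split, so their values are uncertain.

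A list of 89 other genes of the pathway, chosen with earlier results of these data known, was sorted by role. The UMI minimum is set on the sum of the 4 libraries, so genes near 0 in vivo can pass it through the cultures alone. The counts by role are therefore descriptions only. Over whole libraries, target genes stood past 2-fold higher in 18 of 20 measured in the 2-day pair and in 14 of 20 in the 7-day pair, none lower, against 4.19% and 3.6% of all genes. Saa3, an acute phase protein, was at 10390.0, 606, 1.11 and 0.818 CPM, and Cxcl5, a chemokine that draws neutrophils, at 386, 13.5, 0.0347 and 0.0178 CPM. The lowest targets were Plau, at ratios of 0.64 and 0.49, and Bcl2a1d, which has near-identical copies, at 0.43 and 0.079. Both had under 1 CPM in each library, a range where the added 1 CPM pulls ratios towards 0.

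Ligands were past 2-fold higher in 3 and 1 of 6 measured, where 4.19% and 3.6% of all genes were. Il33, an alarmin of stromal cells, stood at 70.9, 5.44, 0.122 and 0.160 CPM and Tnfsf13b, which encodes BAFF, at 5.67, 1.72, 0.469 and 0.427 CPM. Tnf itself was at 0.468, 0.808, 0.104 and 0.160 CPM and Ltb at 1.68, 3.45, 1.46 and 1.33 CPM, with ratios of 0.41 and 0.13 in the 2-day pair. Tnf was under the added 1 CPM in each library, so its ratio is pulled towards 0 and does not show an unchanged level. Receptors were past 2-fold higher in 4 and 2 of 13, beside the same shares of all genes. Cd14 and Tlr2, which sense bacterial lipids, were at 42.5, 25.1, 2.10 and 2.44 CPM and 9.35, 6.12, 0.903 and 0.836 CPM, while Il1rap and Tnfrsf11a had ratios of -0.087 and -0.10 in the 2-day pair.

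Adaptors and kinases were past 2-fold higher in 2 and 1 of 26, near the shares over all genes of 4.19% and 3.6%. Myd88, the adaptor of Toll-like receptors, was at 1.18 and 0.62, and Irak3, a brake among the kinases, at 1.77 and 0.76. At the other end, Map3k7 (TAK1) and its partner Tab3 had -0.44 and -0.52 in the 2-day pair. Among the other subunits and IkB proteins, Bcl3 was past 2-fold in the 2-day pair, 1 of 5, at 31.3, 15.1, 7.55 and 10.1 CPM. The subunit gene Rel had ratios of 0.049 and -0.26, Nfkbib 0.18 and -0.23, and Nfkbil1 -0.30 and 0.34. Of 11 other inhibitors, 1 was past 2-fold higher in the 2-day pair, with 2 in the 7-day pair. These were Zc3h12a, an RNase that cuts cytokine mRNAs, at 1.97 and 1.05, and Tnip3, at 0.95 and 1.38. So few genes are not read as differing from the shares over all genes. Itch and Otulin had the lowest ratios of this role, -0.51 and -0.58 in the 2-day pair.

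Within stromal- or myoid-like cells the targets again led. Of the 24 listed, 16 were measured, and some of these can have passed the UMI minimum through the cultures alone. These targets were past 2-fold higher in 15 and 12 of 16, against 5.86% and 4.98% of all genes in these cells, with medians of 5.51 and 3.10. Receptors were so in 6 and 5 of 10, with medians of 1.55 and 0.85, and Cd14 stood at 58.6, 35.5, 0.105 and 0.396 CPM and Tlr2 at 20.7, 19.2, 0.732 and 0.791 CPM. Adaptors and kinases were so in 2 and 0 of 26, near the shares over all genes there, with 1 past 2-fold lower in the 7-day pair and medians of -0.017 and 0.22. The other inhibitors had 1 of 10 in both pairs, Zc3h12a at 4.31 and 2.64. The 10 genes described, with medians of 2.08 and 1.56, lay between the medians of the targets and of the adaptors and kinases. Bcl3 stood at 51.2, 25.2, 6.59 and 8.70 CPM in these cells, with ratios of 2.78 and 1.44. In germ-like cells, 13 of the 24 listed targets were measured, under the same minimum. Of these, 8 and 3 were past 2-fold higher, where 1.27% and 0.677% of all genes were, beside 0 of the 10 genes described. The part of free RNA in the germ-like target counts was not tested.

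**Figure D5:**
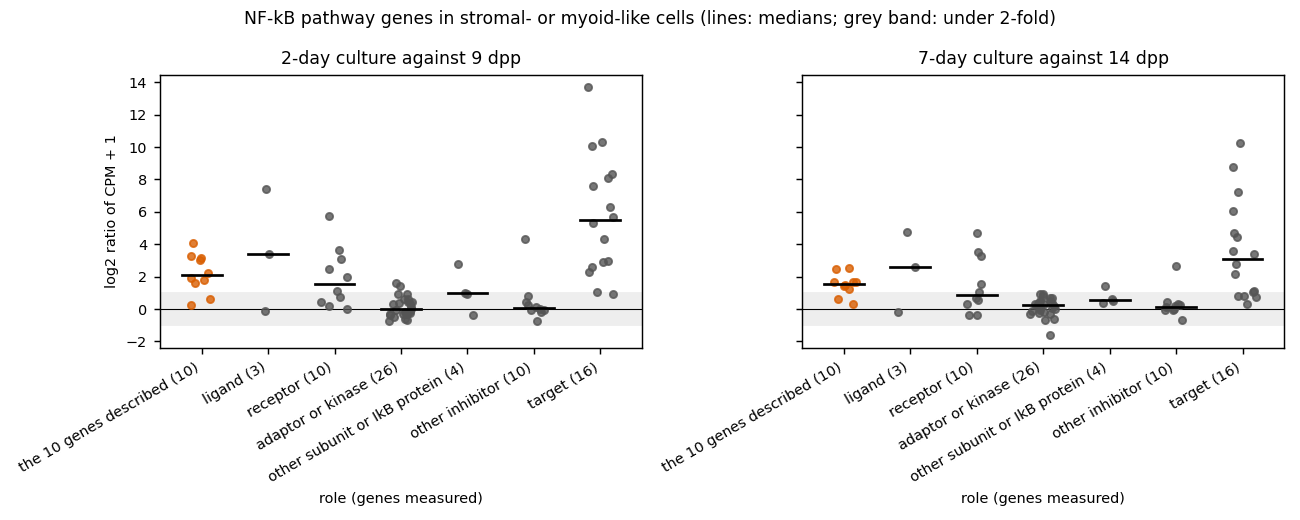
Log2 ratio of CPM + 1 in stromal- or myoid-like cells for the 10 genes described (orange) and for other pathway genes by role (grey), in the 2-day pair (left) and the 7-day pair (right); each point is a gene, lines are medians, the grey band holds ratios under 2-fold, and numbers in parentheses are genes measured. The targets lie highest, at medians of 5.51 and 3.10, and the adaptors and kinases around 0.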

How the data were processed

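Single-cell 3′ libraries of 4 mouse testis samples were analysed, 1 per group. The deposited matrices hold raw UMI counts per gene and cell barcode, made by the authors with Cell Ranger 3.0.2 on mm10, per the submitters' processing notes. The annotation and the settings for calling cells are not given in the sources used here. The labels give testis as the tissue, but their library protocol speaks of female gonads and ES-derived cells, and this conflict was not resolved from the labels; Sertoli-like cells were found in each library. All counts were used as deposited. The matrices list 31053 gene identifiers with 31017 symbols, and counts of identifiers with the same symbol were added. Barcodes under 500 genes or over 20% mitochondrial UMIs were dropped, and scrublet calls (scanpy 1.11.5, expected rate 6%; 253, 93, 143 and 143 barcodes in the order 2-day culture, 7-day culture, 9 dpp, 14 dpp) were removed.

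A cell was given a class when at least 2 markers of that class were seen and the marker UMIs per 10000 passed a minimum (germ 12, Sertoli 40, Leydig 20, stromal with myoid 20, pericyte 5, endothelial 10, others 20). The marker UMIs of each class were also divided by the minimum of that class. This value had to be at least 2 times that of any other class. The minimums were set after the distributions were seen. Of 23038 cells, 87 (0.378%) lay from 0.8 to 1.25 times a minimum. In the 4 classes compared, medians of other classes' markers were at most 19.8 UMIs per 10000, in Leydig-like cells. Leiden clusters (leidenalg 0.10.2, 2000 genes, 30 components) served as an alternative.

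UMIs were summed per library or class with at least 50 cells, and genes under 50 UMIs in the sum of the 4 libraries were left out. CPM has exact Poisson intervals, log2 ratios of CPM + 1 have delta-method Poisson intervals, and shares have Clopper-Pearson intervals. UMIs remove PCR copies, and intervals cover counting error only. Alternatives with edgeR 4.0.16 (TMM factors) and DESeq2 1.42.0 (size factors) concern scaling only. The 10 genes are all named; of each pathway role, the 2 genes with the highest and the 2 with the lowest whole-library ratio in the 2-day pair are named; and for each of the 10, the 3 genes with the highest r over the 16 sums. The members, lists and markers were chosen with earlier results of these data known.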

Additional observations from a re-analysis of the deposited data

Results flagged for a closer look

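Some genes had ratios of opposite sign in the 2 time comparisons, 14 dpp against 9 dpp and the 7-day against the 2-day culture, with counting intervals that left out 0 in both. The difference was not tested, since each library stands alone. Over whole libraries these were Relb, 0.27 in vivo and -0.61 in culture, and Nfkbia, 0.054 and -1.26. The in vivo value of Nfkbia is so small that a stricter cell filter (at least 1000 genes and at most 10% mitochondrial UMIs) turned it to -0.22, and leaving out mixed and unassigned cells to -0.045. In stromal- or myoid-like cells they were Nfkbia (0.52 and -1.13), Nfkbiz (0.75 and -0.64) and Tnfaip3 (0.76 and -0.86), the last with 5 and 8 UMIs in vivo. In Sertoli-like cells they were Nfkb2 (0.42 and -0.39), Nfkbia (0.21 and -0.43) and Tnfaip3 (0.56 and -1.04). Germ-like cells added Relb (0.31 and -0.34) and Nfkbia (0.52 and -1.12). Nfkbia in germ-like cells was also higher than in vivo in the 2-day pair, at 0.94, and lower in the 7-day pair, at -0.69; this difference was not tested either.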

How the results depend on the processing

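Each count of genes past 2-fold, in either direction, was recomputed under up to 16 alternatives; 146 of 179 such values were within 1.5 times the main count. Of 1394 ratios of single genes, 1227 moved by less than the counting error, 167 by more, and 0 of the ratios past 2-fold changed sign. With 10 added to CPM the counts were 0 (whole library, 7-day pair), 1 (whole library, 7-day against 2-day culture), 5 (stromal- or myoid-like, 7-day pair), 4 and 2 (Sertoli-like, 2-day and 7-day pairs) and 3 (Leydig-like, 2-day pair); with 0.1 added, or no constant and a floor of 3 UMIs, germ-like cells had 1 in each pair (Nfkbia higher in the 2-day pair, Nfkb2 lower in the 7-day pair). A 4-fold threshold left 5 and 0 (whole library), 5 and 2 (stromal- or myoid-like), 2 and 0 (Sertoli-like) and 0 and 0 (Leydig-like) in the 2-day pair and the 7-day pair, then 0 for the 7-day against the 2-day culture; a 1.5-fold threshold gave 9 (whole library, 7-day pair), 8 (7-day against 2-day culture, all lower), 5 (Leydig-like, 7-day pair) and 1 and 2 (germ-like; Nfkbia higher in the 2-day pair, Nfkb2 and Nfkbia lower in the 7-day pair). TMM and DESeq2 factors gave 5 and 7 for the 7-day against the 2-day culture, and TMM moved the median of all genes in the 2-day pair from -0.12 to -0.0082 in whole libraries and, among stromal- or myoid-like cells, from -0.17 to -0.036, with 8 genes past 2-fold as before. Without a UMI minimum, Leydig-like cells had 8 (Nfkb1 among them lower) and 6; after thinning to 2000 UMIs 1 and 1, from fewer UMIs. Germ-like cells had 1 in the 2-day pair after thinning, with doublet calls kept, and with cells weighted equally. The 8 genes with higher stromal- or myoid-like shares in culture were 7 after thinning to 1000 UMIs, and 8 at 4000 or without thinning. At none of these depths was the count made over all genes. Leaving out mixed and unassigned cells, and using cells with at least 2000 UMIs without thinning, were chosen after seeing the data. No paired analysis was run, since each group is 1 library and the 2 pairs differ in age and culture time. The main limits are this lack of replicates, classes rebuilt from markers, clusters that differ between culture and in vivo, and the few Leydig-like cells.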

Other observations

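Rare classes, with under 50 cells in a library, were left out of the counts above and are given as levels. Macrophage-like cells (10, 19, 28 and 48 cells) held 459, 334, 46.6 and 52.7 CPM of Nfkbia, from 40, 218, 13 and 18 UMIs, and 5, 13, 1 and 0 UMIs of Tnfaip3. Endothelial-like cells (49, 21, 18 and 31 cells) held 667, 589, 295 and 342 CPM of Nfkbia from 384, 371, 73 and 135 UMIs, and 5, 11, 1 and 3 UMIs of Birc3. In pericyte-like cells (31, 21, 34 and 35 cells) Nfkbia stood at 918, 278, 141 and 179 CPM from 99, 38, 29 and 23 UMIs, with the 2-day culture above the other libraries, and Rela at 186, 102, 77.6 and 38.9 CPM from 20, 14, 16 and 5 UMIs. No ratio is given for these classes.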
